A study of Mus musculus with 6 samples.

Results

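The genes described are 33 of the 16123 genes in a table of liver gene expression from wild type (WT) and *Txndc5*-deficient (knock-out, KO) mice, taken by symbol as the enzymes, transporters and regulators of gluconeogenesis, glycolysis and glycogen. The rule uses symbols and no expression value, although results of these data were known when it was set. The set holds the 3 proteins of glucose export, 4 enzymes of gluconeogenesis, 3 regulators, 3 hexokinases, 6 phosphofructokinases and related kinases, 7 enzymes shared by both directions, 3 enzymes at the pyruvate end and 4 enzymes of glycogen.

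TXNDC5 is a protein disulfide isomerase of the endoplasmic reticulum. The study asked how its loss alters the hepatic transcriptome. WT mice were C57BL/6Rj and KO mice were C57BL/6JRj-Txndc5<em2Mdnp>/Ciba, a line bred from a single CRISPR founder that lacks exon 3 of *Txndc5* in all cells. All were two-month-old males that ate a purified chow diet for 4 weeks and were fasted for 16 h, and liver sections were washed with PBS before polyA RNA was sequenced. Each genotype had 3 libraries, each from a pool of RNA of 3 mice, so differences between single mice are averaged within a library. The libraries held from 44040160 to 46050030 clean reads, and ribosomal RNA took from 0.26 to 0.69% of reads.

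In a fasted liver, gluconeogenesis makes glucose from lactate, glycerol and amino acids and replaces the glucose that glycogen can no longer supply. Glycolysis uses most of the same enzymes in the opposite direction, and the irreversible steps are served by separate enzymes in each direction, which is where control is exerted. Glucagon, acting through cAMP and the factor CREB, glucocorticoids and the factor FOXO1 raise transcription of the gluconeogenic genes, and insulin lowers it. Gluconeogenic enzymes are known to be richest in periportal hepatocytes and glycolytic ones in pericentral hepatocytes.

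For each gene the table gives 1 expression value per genotype, which the authors derived from reads divided by library size factors and which combines the 3 libraries. A log2 ratio of KO over WT was formed from these values, and a log2 ratio of 0.5 in size was taken as a fold limit. The values are shrunken and are not plain genotype means. Over weak genes their log2 ratio was 0.818 times that of the library means (median), and the fold limit applies to the shrunken ratios. These ratios have no replicate check and no test. Among weakly expressed genes the whole reads behind each library could be worked out from the printed digits, and 8 of the 33 genes have such values, given below as scaled reads (reads divided by the size factor of the library). The libraries so recovered carry no pool number and are named by genotype and size factor (KO 1.31, KO 1.04, KO 0.886, WT 1.22, WT 0.879 and WT 0.818), and values of a genotype follow this order. The genotype of each comes from which of the 2 combined values is higher in genes with a single read. The libraries with the largest factor of each genotype, KO 1.31 and WT 1.22, stood apart together: their deviations from the genotype means correlated with r = 0.62 over 3789 genes. The table listed *Txndc5* at 2697 in WT and at 90.8 in KO, a 29.7-fold lower value, in the direction the labels give. The bulk tissue cannot tell fewer cells of a type from less RNA per cell.

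The 250 bases before the start of transcription are shown for 4 members, from RefSeq on the build GRCm38.p6, because these hold the highest ratio (*Slc2a2*) and the lowest ratio (*Ppargc1a*) of the set and the regulated steps of glucose production (*G6pc* and *Pck1*). Capitals mark letters that match any of 6 motifs searched on both strands: TGACGTCA (the full cAMP response element), TGACG (its shorter form, which can lie inside the full one), TGTTTAC (the core that FOXO and FOXA factors read), CACGTG (an E-box), TATAAA (the TATA box) and the glucocorticoid response element by name. They lie at chr3:28697653-28697902 (*Slc2a2*, plus strand), chr11:101367466-101367715 (*G6pc*, plus strand), chr2:173152823-173153072 (*Pck1*, plus strand) and chr5:51567726-51567975 (*Ppargc1a*, minus strand). The *Ppargc1a* window lies inside the listed span of that gene, 51454249 to 52115853, so it precedes an internal start and not the outermost one.
Slc2a2: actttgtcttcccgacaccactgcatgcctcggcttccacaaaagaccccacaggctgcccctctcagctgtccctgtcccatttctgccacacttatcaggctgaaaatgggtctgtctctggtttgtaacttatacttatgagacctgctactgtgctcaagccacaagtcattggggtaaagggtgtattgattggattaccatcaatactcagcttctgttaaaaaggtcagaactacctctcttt
G6pc: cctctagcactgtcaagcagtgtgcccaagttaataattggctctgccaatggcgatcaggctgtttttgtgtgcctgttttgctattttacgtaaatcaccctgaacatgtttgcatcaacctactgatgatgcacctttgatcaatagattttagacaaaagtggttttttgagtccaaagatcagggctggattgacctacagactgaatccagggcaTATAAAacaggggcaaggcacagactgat
Pck1: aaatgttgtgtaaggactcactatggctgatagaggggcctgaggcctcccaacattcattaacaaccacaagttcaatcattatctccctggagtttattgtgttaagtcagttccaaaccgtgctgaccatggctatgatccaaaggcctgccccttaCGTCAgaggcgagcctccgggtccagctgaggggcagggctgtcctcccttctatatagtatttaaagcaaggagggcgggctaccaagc
Ppargc1a: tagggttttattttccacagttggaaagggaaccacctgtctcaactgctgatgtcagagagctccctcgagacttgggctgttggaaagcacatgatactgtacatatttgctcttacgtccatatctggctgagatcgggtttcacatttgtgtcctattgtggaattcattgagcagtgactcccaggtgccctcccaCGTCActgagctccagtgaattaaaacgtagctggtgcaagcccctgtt

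The *G6pc* window holds TATAAA from 29 to 24 bases before the start. The *Pck1* window holds the shorter cAMP element on the reverse strand from 90 to 86 bases before the start, and the *Ppargc1a* window holds it on the reverse strand from 49 to 45 bases before the start. The *Slc2a2* window matched none of the 6 motifs. RefSeq windows were found for 32 of the 33 genes, with *Gys2* as the exception. In at least 1 window, TGACG was present in 8 of these 32 genes (25%) and in 19.8% of all 27025 genes with windows, and CACGTG in 5 of 32 (15.6%) against 6.86%. TATAAA was present in 4 of 32 (12.5%) against 14.3%, and TGACGTCA in 1 of 32, *Ldha*, against 1.77%. TGTTTAC (3.54% of all genes) and the glucocorticoid response element (0.44%) were in none of the 32. These are matches of letters. Variants of the motifs were not searched, so a window without a match, that of *G6pc* included, may still hold a site. The 32 members have 53 windows and all 27025 genes have 32851, so that a member had more windows in which a match could occur.

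Across the set, values in KO and WT lay close together. Of the 32 members with a mean value of at least 10, 1 (*Slc2a2*) passed the fold limit upward and none downward. Of all 11367 genes with such a mean, 10.4% passed the limit in either direction, 2.48% upward and 7.9% downward. Among the stronger genes, those with a mean of 1000 or more, where 16 members lie and 1 passed, the share was 3.68%. No member reached a log2 ratio of 1 in size, and 0.897% of all genes did. The remaining member, *Hk2*, had a ratio past the limit but a mean value of 9.22. The median log2 ratio of the members was 0.01 (quartiles -0.15 and 0.15), with 17 above 0 and 15 below. That of all 11367 genes was -0.05 (quartiles -0.23 and 0.13), with 4803 above 0 and 6564 below. The median size of the ratio was 0.15 in the members and 0.18 in all genes. Among genes with a mean of 1000 or more the order was reversed, with 0.16 in the 16 members and 0.13 in all 1765.

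**Figure D1:**
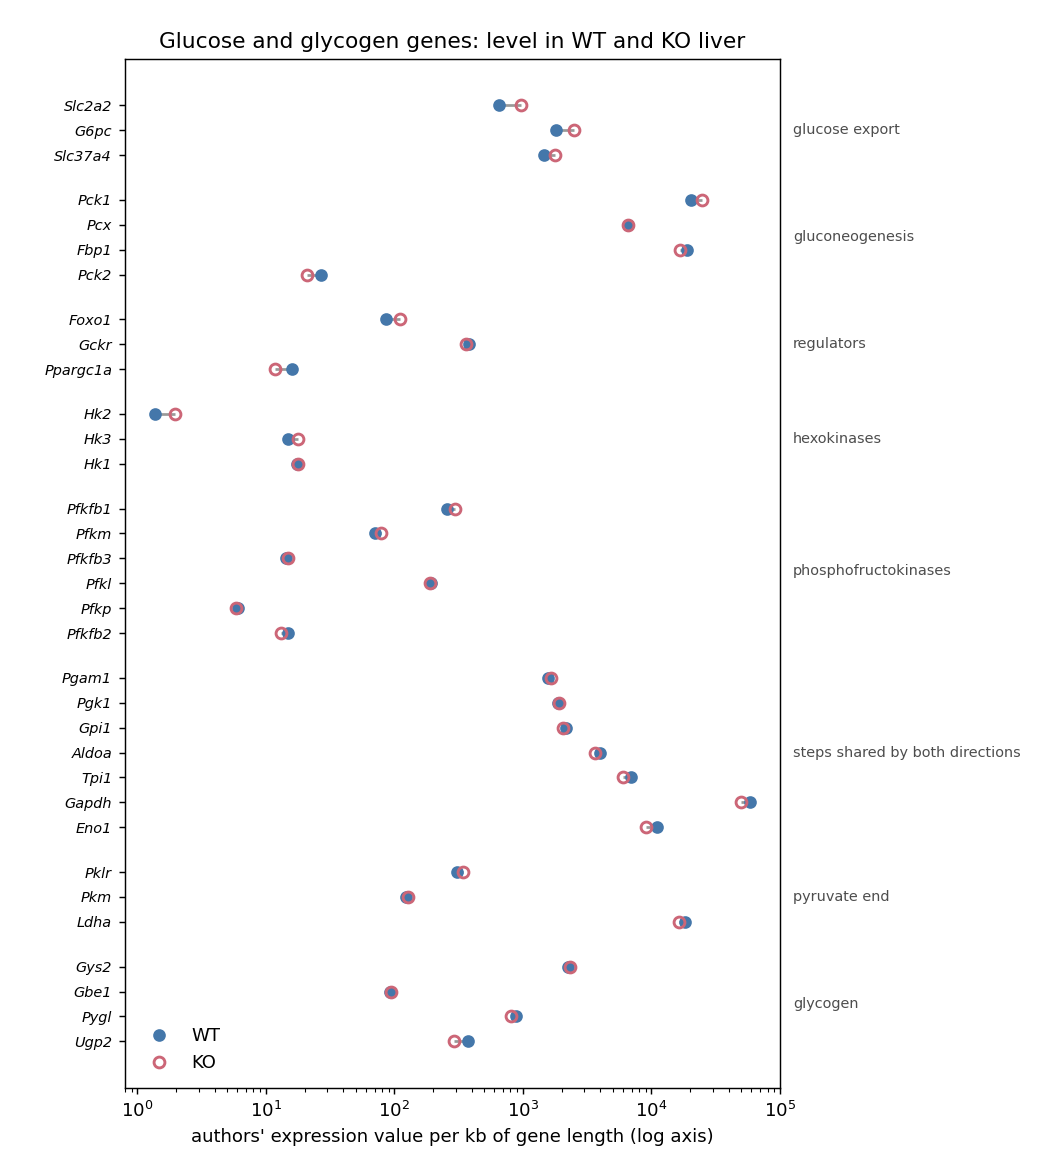
Expression value per kb of gene length in WT (filled blue) and KO (open red) for the 33 genes, by role, on a log axis, 1 combined value per genotype. Levels run from 1.67 per kb (*Hk2*) to 54369 per kb (*Gapdh*), means of both genotypes, and the genotypes nearly coincide for most genes.

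Levels per kb of gene length, as means of both genotypes, spanned more than 4 powers of 10. *Gapdh*, which oxidises glyceraldehyde 3-phosphate, was highest at 54369 per kb, followed by *Pck1* at 22526, *Fbp1* at 17689, *Ldha* at 17384 and *Eno1* at 10099. *Pcx* (6571), *Tpi1* (6439) and *Aldoa* (3795) came next. The platelet phosphofructokinase *Pfkp*, at 5.96, and *Hk2*, at 1.67, were lowest. With 1 value per genotype, neighbours in this order cannot be separated by a test. *Gapdh*, *Ldha*, *Pgam1*, *Aldoa*, *Tpi1*, *Eno1* and *Pkm* have close processed copies in the genome, so that reads can be split between copies and their values are uncertain.

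All 3 proteins of glucose export had a higher value in KO. *Slc2a2* encodes GLUT2, the glucose transporter of the hepatocyte surface, and lies on chromosome 3 from 28697903 to 28728361 (GRCm38.p6). It was listed at 1685 in WT and at 2483 in KO, which is 1.47-fold higher (log2 ratio 0.56), and 8.01% of genes had a larger ratio in size. *G6pc*, the catalytic subunit of glucose 6-phosphatase on chromosome 11 from 101367716 to 101377903, which releases free glucose, was listed at 4134 in WT and 5629 in KO (log2 ratio 0.45). *Slc37a4*, which carries glucose 6-phosphate into the endoplasmic reticulum where that enzyme works, was listed at 3056 and 3676 (log2 ratio 0.27). Of the same 11367 genes, 13.2% held a larger ratio in size than *G6pc* and 32.3% than *Slc37a4*. All 3 had a mean value above 1000. Among all genes with a mean of 1000 or more, ratios were smaller, and 3.68% passed the fold limit. The ratios of these 3 genes, whose products act in sequence, ranked 1, 3 and 6 of the 33. None has values per library, so whether they exceed the spread between pools was not tested.

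The 4 enzymes of gluconeogenesis proper did not share a direction. *Pck1*, the cytosolic phosphoenolpyruvate carboxykinase on chromosome 2 from 173153073 to 173159274, was listed at 53229 in WT and 64671 in KO (log2 ratio 0.28). *Pcx*, which carboxylates pyruvate in mitochondria, differed by 0.02 on the log2 scale, and *Fbp1*, which dephosphorylates fructose 1,6-bisphosphate, had a lower value in KO (27742 in WT and 24583 in KO, log2 ratio -0.17). The mitochondrial form *Pck2* was far weaker, at 26.7 per kb in WT against 20340 per kb for *Pck1*.

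*Pck2* is among the genes with reads per library. Its scaled reads were 64.5, 78.5 and 135 in the WT libraries and 45.7, 73.4 and 86.9 in the KO libraries. The genotypes overlapped, and WT 0.818 alone exceeded every KO library. The means were 92.5 ± 37.1 in WT and 68.7 ± 21.0 in KO (SD, n = 3 each), and the exact permutation test of the difference, two-sided, gave p = 0.5. With 3 libraries against 3, that test cannot fall below 0.1. The limma difference was -0.40 with all libraries, -0.10 without WT 0.818, -0.14 without KO 1.31 and -0.62 without WT 1.22.

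Markers of the liver zones were read beside these enzymes. Of 14 periportal genes, 12 had a lower value in KO, against 6564 of all 11367 genes, and the median log2 ratio was -0.13. The limit was passed downward by 1 periportal gene, and by 7.9% of all genes (2.48% upward). Their summed value was 290156 in WT and 259044 in KO, and none was at 0. The strongest were *Ass1* (-0.23), *Cps1* (-0.10), *Cyp2f2* (-0.16) and *Arg1* (-0.18). A fall was not particular to this zone: of 14 general hepatocyte genes, *Cps1* among them, 10 were lower in KO, with a median of -0.14. Of 16 pericentral genes, 10 had a higher value in KO, against 4803 of all 11367 genes. The pericentral median was 0.07, with 1 past the limit in each direction. Summed pericentral values were 263061 in WT and 306515 in KO, with *Cyp2e1* alone at 208753 and 240352. *G6pc*, *Pck1* and *Slc37a4* thus had ratios of the opposite sign to those of most periportal markers, and *Fbp1* and *Pck2* the same sign. The part of zonation in these values was not tested.

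Of the 3 regulators, *Foxo1*, the insulin-restrained factor that drives gluconeogenic genes, was listed at 478 in WT and 611 in KO (log2 ratio 0.35). *Gckr*, an inhibitory protein of glucose phosphorylation, had 774 and 723 (-0.10). *Ppargc1a* encodes PGC-1α, the coactivator induced by fasting, and had the lowest ratio of the set, -0.44, from 103 in WT and 76.2 in KO. This was opposite in sign to the ratios of *Pck1* and *G6pc*, which it is known to coactivate.

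Scaled reads of *Ppargc1a* were 116, 54.6 and 146 in the WT libraries and 64.0, 67.6 and 90.3 in the KO libraries. All 3 KO libraries lay between the lowest and the highest WT library, so the genotypes overlapped. Means were 105 ± 46.4 in WT and 74.0 ± 14.3 in KO (SD, n = 3 each), a log2 ratio of -0.51, with an exact permutation p of 0.4, two-sided. The reads of this gene left 4 possible sets, and the set given came nearest to the listed ratio in a calibrated refit (off by 0.0083 on the log2 scale, against 0.064 for the next). The limma difference was -0.41 with all libraries. It was -0.12 without WT 0.818, -0.28 without WT 1.22 and -0.82 without WT 0.879, where the adjusted p by limma over 5171 genes was 0.9999 (0.0341 unadjusted).

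**Figure D2:**
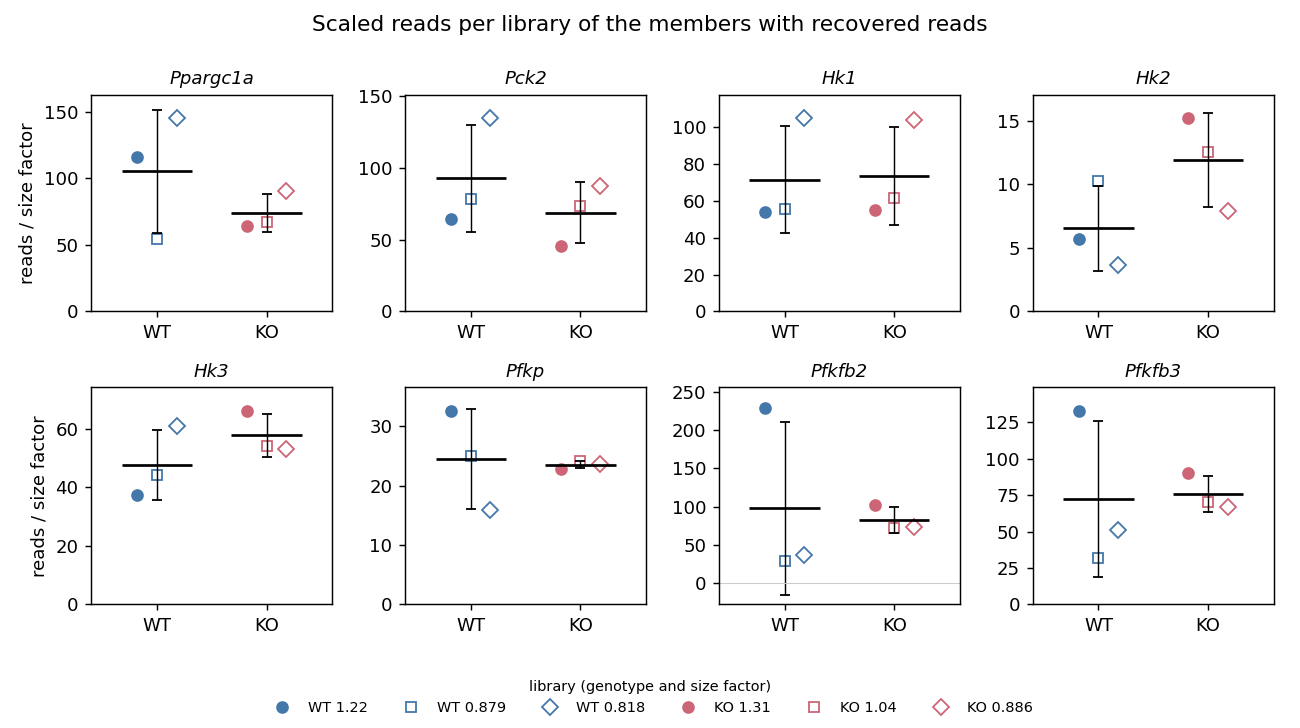
Scaled reads (reads divided by the size factor) in each of the 6 libraries for the 8 members with recovered reads, WT in blue and KO in red; bars are the mean and SD of 3 libraries. In each panel the genotypes overlap, and in *Pfkfb2* and *Pfkfb3* the library WT 1.22 lies far above the other WT libraries.

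The hexokinases of the set phosphorylate glucose mainly outside hepatocytes. *Hk1*, typical of brain and red cells, had scaled reads of 53.9, 55.7 and 105 in the WT libraries and 54.9, 61.8 and 104 in the KO libraries. The genotypes had nearly the same means, 71.6 ± 29.1 and 73.5 ± 26.5 (SD, n = 3 each), and each had 1 library well above the others. *Hk2*, the insulin-regulated form of muscle and fat, had 5.72, 10.2 and 3.67 in WT and 15.2, 12.6 and 7.90 in KO. Only WT 0.879 reached into the range of the KO libraries, and the log2 ratio of the means was 0.86 (exact permutation p = 0.2, two-sided). These rest on 3 to 20 reads per library. *Hk3*, found in myeloid cells, had 37.6, 44.4 and 61.1 in WT and 66.3, 54.1 and 53.1 in KO, overlapping, with an exact permutation p of 0.3.

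The other cells that carry these forms were read through their markers. Of 7 red cell genes with a mean of at least 10, 4 passed the limit upward in KO, against 2.48% of all genes. The summed value of the 9 listed genes was 118884 in WT and 180482 in KO. The strongest were *Hba-a1* (0.56), *Hba-a2* (0.49), *Hbb-bs* (0.79) and *Hbb-bt* (0.78), and none was at 0. Of 13 Kupffer cell genes, 2 passed upward and none downward, with a median of 0.11 and summed values of 6512 and 7165. Only weak markers have reads per library. Summed scaled reads of 3 red cell genes were 101, 44.4 and 12.2 in WT and 56.4, 35.7 and 67.7 in KO. For 2 Kupffer cell genes they were 51.4, 118 and 96.6 in WT and 101, 81.1 and 182 in KO. The genotypes overlapped in both. The part of these cells in the hexokinase values was not tested.

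Among the phosphofructokinases, which commit sugar to glycolysis, the liver form *Pfkl* differed by -0.03 (724 in WT and 709 in KO), with the sign reversed once ratios were centred on all genes. The muscle form *Pfkm* had a ratio of 0.15 and the platelet form *Pfkp* of -0.06. *Pfkfb1*, the liver enzyme that makes and breaks down fructose 2,6-bisphosphate, the signal that switches between glycolysis and gluconeogenesis, had 448 in WT and 523 in KO (0.22). Scaled reads of *Pfkp* were 32.7, 25.0 and 15.9 in WT and 22.9, 24.1 and 23.7 in KO. The KO libraries lay within the WT range and were much closer to each other than the WT libraries were.

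*Pfkfb2* and *Pfkfb3*, further forms of the same bifunctional enzyme, rested on a single library. *Pfkfb2* had 229, 28.4 and 36.7 scaled reads in the libraries WT 1.22, WT 0.879 and WT 0.818, and 103, 72.4 and 73.4 in the KO libraries. WT 1.22 held 6.23 times as many as the next WT library, while the other WT libraries lay below every KO library. These reads were chosen from 2 possible sets in the same way. The log2 ratio of the means was -0.24, and 1.35 without WT 1.22.

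*Pfkfb3* had 133, 31.8 and 51.4 scaled reads in WT and 89.9, 70.5 and 66.6 in KO. Again WT 1.22 was highest and the other WT libraries were below all KO libraries. The log2 ratio of the means was 0.07, and 0.86 without WT 1.22. With all libraries the limma difference was 0.39 with a standard error of 0.64 for *Pfkfb2*, opposite in sign to its ratio of means, and 0.31 with a standard error of 0.48 for *Pfkfb3*. Leaving out WT 1.22 gave limma differences of 1.31 for *Pfkfb2* and 0.87 for *Pfkfb3*, with an adjusted p of 0.988 by limma for both over 5171 genes (0.00284 and 0.0321 unadjusted). Without KO 1.31 as well, the library that deviated with WT 1.22, the ratios of the means were 1.16 and 0.72, from 2 libraries a genotype. Over all genes with 1 possible set of reads, WT 1.22 held 261039 reads, WT 0.879 held 123681 and WT 0.818 held 111006. The KO libraries held 225892, 143620 and 118376. WT 1.22 exceeded the other WT libraries by more than the size factors do, so its scaled reads ran high over weak genes in general. The part of this in *Pfkfb2* and *Pfkfb3* was not tested.

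**Figure D3:**
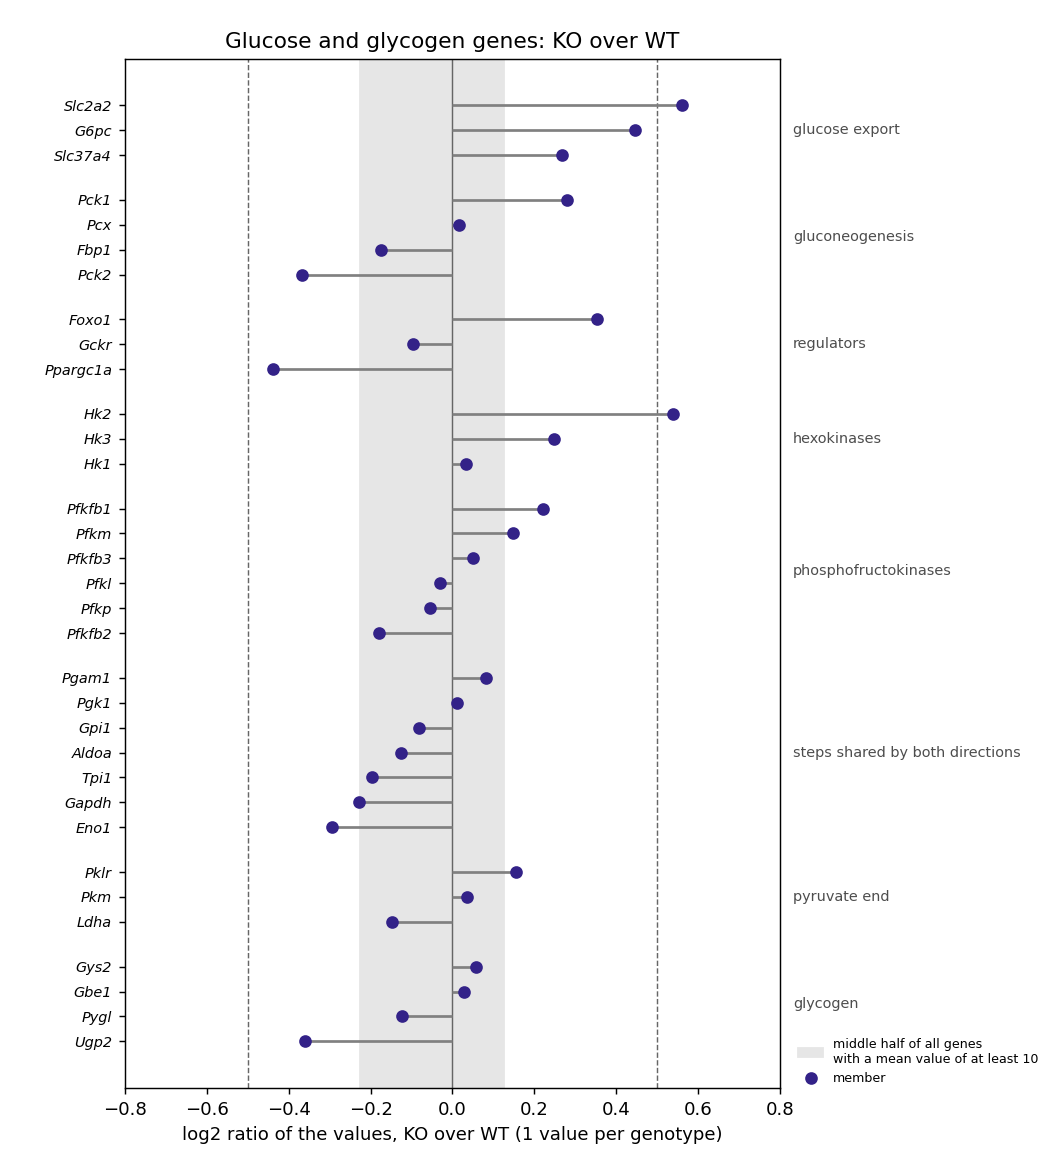
Log2 ratio of the KO value over the WT value for the 33 genes, by role, 1 combined value per genotype and so with no error bar. The grey band holds the middle quartiles of all genes whose mean value was at least 10 (-0.23 to 0.13) and dashed lines mark the fold limit. Only *Slc2a2* (0.56) and *Hk2* (0.54) lie outside the limit.

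Of the 7 enzymes shared by both directions, 5 had a lower value in KO, against 6564 of all 11367 genes. None passed the limit, and the median log2 ratio was -0.12, against -0.05 for all 11367 genes. *Eno1*, which forms phosphoenolpyruvate, had the lowest ratio (-0.29, from 20363 to 16621). *Gapdh* followed (-0.23, from 81134 in WT to 69250 in KO), and *Gapdh* often serves as a reference gene. *Tpi1*, which interconverts the triose phosphates, had a ratio of -0.20 and the aldolase *Aldoa* of -0.12. *Gpi1*, which interconverts glucose and fructose 6-phosphate, had -0.08, while the kinase *Pgk1* (0.01) and the mutase *Pgam1* (0.08) were slightly above 0. Apart from *Eno1* and *Gapdh*, these ratios lay within the middle quartiles of all genes.

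At the pyruvate end, *Pklr*, the pyruvate kinase of liver and red cells, had 824 in WT and 918 in KO (0.16). *Pkm*, the form of most other tissues, differed by 0.04. *Ldha*, which interconverts pyruvate and lactate, had 30340 in WT and 27409 in KO (-0.15).

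Among the enzymes of glycogen, *Ugp2*, which makes UDP-glucose, the donor for glycogen, had the largest difference, 1040 in WT and 811 in KO (-0.36). The liver glycogen synthase *Gys2* (0.06) and the branching enzyme *Gbe1* (0.03) had nearly equal values, and the liver phosphorylase *Pygl*, which breaks glycogen down, had 2501 and 2298 (-0.12).

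No member passed the test over libraries. limma was run on log2(scaled reads + 1) over 3307 genes with summed scaled reads from 60 to 400, which include *Hk3* and *Pfkp*, and none of these genes had an adjusted p under 0.05 (0%). Without adjustment, 54 of the 3307 (1.63%) had a p under 0.05, and edgeR's quasi-likelihood test made no call and found 65 such genes. The limma difference was 0.29 with a standard error of 0.34 for *Hk3* and 0.00 with a standard error of 0.44 for *Pfkp*, each with an adjusted p of 0.999. That of *Hk3* was 0.14 without WT 1.22, 0.19 without KO 1.31 and 0.48 without WT 0.818. Scaled by the total of recovered reads in place of size factors, the differences were 0.41 for *Hk3* and 0.12 for *Pfkp*. With the range widened to sums from 20 to 600 (5171 genes, chosen after seeing the data), all 8 members entered. Again no gene passed, with 96 genes under an unadjusted p of 0.05 by limma and 106 by edgeR. With all libraries, the widest difference of a member was that of *Hk2*, 0.83 with a standard error of 0.57 and an adjusted p of 0.999 by limma. It was 0.53 without WT 0.818 and 1.16 without WT 0.879. In 8 of 8 members the genotypes overlapped, and in 5.92% of the 5171 genes they did not.

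Other genes of the same pathways had ratios of similar size, with a median size of 0.14. Of 61 such enzymes and transporters with a mean value of at least 10, 2 passed the limit upward and none downward, with a median of 0.02. These were *Gpd1l*, related to the glycerol 3-phosphate dehydrogenases (0.59, from 366 in WT to 553 in KO), and *Ppp1r3e*, a subunit that brings protein phosphatase to glycogen (0.72, from 21.4 to 35.3). Of all 11367 genes with such a mean value, 10.4% passed the limit in either direction. Of 41 regulators of glucose output outside the set, a similar share passed, 2 upward and 2 downward, with a median of -0.06. They were named after their values were seen: *Sik1*, a kinase that restrains CREB coactivators (0.95, from 310 to 600), *Irs2*, the insulin receptor substrate (0.75, from 226 to 381), *Creb1* itself (-0.62, from 51.3 to 33.3) and the clock repressor *Nr1d1* (-0.51, from 3497 to 2455). *Creb1* and *Ppp1r3e* were among the 3307 weak genes tested by limma, none of which had an adjusted p under 0.05.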

How the data were processed

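RNA of 6 liver pools was sequenced by a commercial service. The submitters' processing notes name HISAT2, StringTie, Cufflinks, GATK, Bowtie2, RSEM and the build mm10, without roles. Clean read counts and the percent of ribosomal RNA were deposited per library. For every gene the authors deposited a signal for each genotype, in units of reads over DESeq2 size factors, shrunken so that over weak genes its log2 ratio was 0.818 times that of the library means (median). The authors' own log2 fold changes, p-values, adjusted p-values and direction calls, and the file of splicing events, were not used.

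The mean of a gene's signals equals the mean over 6 libraries of reads divided by size factor, printed to 15 digits. Values that recurred in 20 or more genes showed what 1 read of each library adds, and all sets of whole reads that give a gene's mean were enumerated up to a sum of 600. A single set was found for 8063 of 8081 genes with a sum up to 400 (99.8%) and for 480 of 979 above. Tested on simulated data, the method found a single set for 7712 of 7725 and 457 of 869 genes, each right. Where a member had several sets, a DESeq2 fit with shrinkage, calibrated by a straight line over 1106 genes with a single set (r = 0.9993), chose the set whose ratio came nearest to that of the listed values.

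The limma test (limma 3.58.1, edgeR 4.0.16, DESeq2 1.42.0, R 4.3.3, Python 3.11.15) used an intensity trend, a pseudocount of 1 and Benjamini-Hochberg adjustment over all genes tested. On simulated data with 200 of 3307 genes changed by a log2 fold of 2, it called 190. That simulation held no deviation shared between libraries. It also held less spread within a genotype than the real libraries, where the median SD was 0.54 on the log2 scale. Its fold was also larger than the widest difference of a member with all libraries, 0.83. It therefore does not show how often differences of that size would be called. The p-values measure the spread between pools. Positions and promoters came from RefSeq tables on GRCm38.p6, the assembly behind mm10, by NCBI Gene identifier or symbol. Every member is named, as are genes of the other lists past the fold limit of log2 0.5 or with the largest values, apart from some that are not reported here. The members and the lists were chosen with earlier results of these data known. Alternatives were pseudocounts, centring, the fold limit, the filter on low values, library scaling, edgeR, a term for the libraries with the largest size factor and each library left out.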

Additional observations from a re-analysis of the deposited data

How the results depend on the processing

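The count of members past the fold limit, 1 in the report, was 0 with a limit of log2 1, and 2 with a mean value of at least 1 or with no minimum, where *Hk2* enters. Pseudocounts of 1 and 10 and centring kept it at 1. Of 99 alternative ratios of the 33 members, none moved by more than 0.54, the median SD between libraries of weak genes. Hardly any could, since a pseudocount only draws a ratio toward 0 and centring shifts all ratios by the same amount. This therefore says little about robustness. The largest shift was 0.28 with a pseudocount of 10 and 0.05 otherwise, and 1 member, *Pfkl*, changed sign when ratios were centred. No limma or edgeR alternative called a member. Differences of 4 members changed sign: *Pfkp*, 0.00 in the report, was -0.0016 with a pseudocount of 2, -0.068 with edgeR and -0.27 to 0.23 with each library left out, *Hk1*, 0.05 with all libraries, -0.22 to 0.36 with each left out, *Pfkfb3*, 0.31 with all libraries, -0.14 to 0.87, and *Pfkfb2*, 0.39 with all libraries, -0.25 with edgeR and -0.17 to 1.31 with each left out. With each library left out, *Pck2* ran from -0.62 to -0.10, *Ppargc1a* from -0.82 to -0.12, *Hk2* from 0.53 to 1.16 and *Hk3* from 0.14 to 0.48. The cause was not tested beyond the values of WT 1.22 given with those genes. A term for the libraries with the largest size factor raised the genes under an unadjusted p of 0.05 from 54 to 251 of 3307, and 2 genes, no member among them, then had an adjusted p under 0.05 by limma. For 25 of the 33 members the deposited values give no spread between pools, and for the other 8 the comparison rests on 3 libraries a genotype. No paired analysis was possible because the genotypes share only the pool number 2 and the gene values carry no pool number.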

Other observations

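Genes known to respond to fasting and to refeeding were read beside the glucose genes, since the mice were fasted. Of 21 fasting genes, 3 passed the fold limit upward in KO and 1 downward, against 2.48% and 7.9% of all 11367 genes. The median log2 ratio of the 21 fasting genes was 0.09. Among the strongest were *Cyp4a10* (0.14), *Cyp4a14* (0.51) and *Fabp1* (-0.26). The others past the limit, named after their values were seen, were *Lpin1* (0.997, from 786 in WT to 1568 in KO), *Igfbp1* (0.60, from 1905 to 2893) and *Cdkn1a* (-0.85, from 120 to 66.9). Of 15 refeeding genes, 3 passed upward and none downward, against the same shares of all genes, with a median of 0.26. Among the strongest were *Scd1* (0.26), *Tkt* (-0.21) and *Fasn*, the fatty acid synthase (0.76, from 1509 to 2555), and *Mid1ip1* (0.68) was also past the limit. The medians of both lists lay above that of all genes (-0.05), with 1 value per genotype and no test.

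Markers of further liver cells were also read, beside the share of all genes past the limit, 2.48% upward and 7.9% downward. Of 12 endothelial genes none passed the limit (median -0.08, summed value 6595 in WT and 6071 in KO). Of 12 stellate cell genes 2 passed upward and 3 downward (median -0.11, 7977 and 7148). Of 6 bile duct genes 1 passed upward (median -0.02, 290 and 318 over 8 listed genes), and of 3 lymphocyte genes 1 downward (median -0.48). Of 14 hepatocyte genes 1 passed downward (median -0.14, 3611257 and 3298921), with *Alb* at 0.00 and *Apoa1* at -0.40. The only muscle gene with a mean value of at least 10, *Mb*, had 0.46, from 16.2 to 22.2.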
